A study of Mus musculus with 11 samples.

Results

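The nuclear genes for the subunits of respiratory complex I were followed in stem cells sorted from the bone marrow of mice given drugs against leukaemia or vehicle. They were taken as the rows of the count table that map to a protein-coding mouse symbol of the Ndufa, Ndufb, Ndufc, Ndufs or Ndufv type, with the assembly factors (Ndufaf) left out. This gave 37 of the 53700 genes in the table, and all 37 passed the filter on low counts that left 16639 genes for testing. Complex I is the largest enzyme of the mitochondrial respiratory chain. It takes electrons from NADH, hands them through a chain of iron-sulphur clusters to ubiquinone, and pumps protons across the inner membrane as it does so. Its core subunits carry the chemistry and its accessory subunits hold the enzyme together, and a further set of core subunits is encoded in the mitochondrial genome. In the marrow, quiescent stem cells are known for a low reliance on respiration, while leukaemic stem cells have often been described as dependent on it.

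RNA was sequenced in bulk from cells labelled ST-HSC (short-term haematopoietic stem cells), sorted by flow cytometry from marrow of C57BL/6j mice. All hosts had received bone marrow of an acute myeloid leukaemia (AML) with the Flt3-ITD mutation and loss of Tet2. The 3 KO treated libraries (257, 263 and 276) came from hosts without CXCL12, a chemokine of the marrow niche, given cytarabine, doxorubicin and quizartinib, and the 3 WT treated libraries (252, 262 and 266) from hosts with CXCL12 given the same drugs. The 2 KO vehicle libraries (249 and 275) and the 3 WT vehicle libraries (240, 253 and 265) came from the matching hosts given vehicle. Cytarabine and doxorubicin interfere with DNA synthesis and integrity, and quizartinib inhibits the FLT3 kinase. The KO hosts are titled Cre positive and the WT hosts Cre negative. The cells in which Cre was active are not given in the sources used here, and an effect of Cre as such and the loss of CXCL12 cannot be told apart. Dose, time of sampling, age and sex of the hosts, and whether each library is 1 animal, are not given either. The p-values therefore measure the spread between these libraries, which may in part be technical.

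The libraries held 8.13 to 31.1 M gene counts, of which the 37 genes took 0.358% to 1.005%. Each of the 37 genes had at least 103 counts in every library. WT vehicle libraries 253 and 265 were the outermost of the 11 on the leading principal components (31.8% and 16.9% of the variance). The share of reads outside annotated genes was 30.4% in KO treated 257, close to WT vehicle 240 (28.7%) and 265 (28.8%), and 5.98% to 18.8% in the other 8 libraries, with 10.5% in 263 and 5.98% in 276. The summed level of 12 stem and progenitor markers was 545 to 1872 CPM (counts per M gene counts of a library, after scaling between libraries), and 257, 240, 253 and 265 each had 1 of the 12 at 0. The summed level of 10 granulocyte markers was 10171 to 156835 CPM, so granulocyte transcripts were present in every library of these cells labelled as stem cells. Markers of monocytes summed to 904 to 4828 CPM, of megakaryocytes to 5.31 to 594 CPM, of B cells to 28.6 to 96.7 CPM, of T and NK cells to 289.6 to 1699.9 CPM (Nkg7 alone 279 to 1698 CPM, and the other 4 markers each at 0 to 5.001 CPM), and of stroma and endothelium to 22.8 to 82.2 CPM. Cxcl12 itself, which the sorted cells hardly express, was at 1.201 to 4.63 CPM in KO treated, 0.826 to 1.59 in WT treated, 0 and 5.36 in KO vehicle and 0 to 14.4 in WT vehicle libraries, and does not check a deletion in the niche. In bulk RNA, fewer cells of a type and less RNA per cell cannot be told apart. Medians of the complex I genes that rest on 257 are given with and without it.

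The 37 genes lie on 15 chromosomes and have short transcripts, from 315 bases (Ndufc1) to 2590 bases (Ndufs1) with a median of 763. Promoters were examined because most of these genes moved together between libraries. RefSeq windows of 250 bases before to 50 after a transcription start (GRCm38.p6) were matched for 33 of the 37 genes. On either strand, a motif of NRF1, an activator of many nuclear genes for respiration, was found for 7 of 33 genes (21.2%), against 5.19% of all 27025 genes with a window and 10.7% of the 11078 tested genes with one. The letters AAGATGGCG (YY1) were found for 5 (15.2%), against 1.64% and 3.36% of the same sets. The letters CCGGAAGT (GABP) were found for 1 (3.03%), against 4.31% and 8.64%. No match of one motif overlapped a match of another in these 33 genes. A match of letters is a description and does not show binding. The 3 sequences below are the 250 bases before the start, 5′ to 3′ on the gene's strand, with NRF1 matches on either strand in capitals. Ndufb4 is shown because it held 3 matches, Ndufs5 for its large differences in level between groups, and Ndufa8 because its level kept closest to the mean of the 37 genes.
Ndufb4, chr16:37654369-37654618, minus strand: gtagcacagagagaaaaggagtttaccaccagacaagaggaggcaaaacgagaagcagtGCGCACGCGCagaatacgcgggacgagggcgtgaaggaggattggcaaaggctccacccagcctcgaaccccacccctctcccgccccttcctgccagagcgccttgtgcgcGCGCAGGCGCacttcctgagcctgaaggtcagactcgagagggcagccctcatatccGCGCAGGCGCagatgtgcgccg
Ndufs5, chr4:123718187-123718436, minus strand: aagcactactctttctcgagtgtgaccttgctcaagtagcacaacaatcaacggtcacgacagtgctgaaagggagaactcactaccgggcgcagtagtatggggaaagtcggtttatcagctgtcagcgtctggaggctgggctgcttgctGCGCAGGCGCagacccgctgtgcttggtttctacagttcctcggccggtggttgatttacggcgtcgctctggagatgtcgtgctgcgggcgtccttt
Ndufa8, chr2:36049339-36049588, minus strand: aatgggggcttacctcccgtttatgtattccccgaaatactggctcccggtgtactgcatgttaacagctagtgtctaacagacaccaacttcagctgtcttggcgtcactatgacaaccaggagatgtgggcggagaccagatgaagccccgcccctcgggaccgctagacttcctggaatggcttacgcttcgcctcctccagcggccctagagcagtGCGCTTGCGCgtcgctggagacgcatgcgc
The 7 genes with an NRF1 match were Ndufa5, Ndufa6, Ndufa8, Ndufa11, Ndufb4, Ndufs5 and Ndufs6. In WT treated against WT vehicle libraries their median log2 fold change was 1.31, against 1.12 for the 26 matched genes without one. In KO treated against WT treated libraries the medians were -0.70 and -0.66.

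Summed over the 37 genes, complex I transcripts fell into a high and a low level that cut across the 4 groups. The sum was 10793, 3331 and 3500.2 CPM in KO treated libraries 257, 263 and 276. It was 9656, 8143 and 9024 CPM in WT treated libraries 252, 262 and 266. It was 3831 and 4029 CPM in KO vehicle libraries 249 and 275, and 4269, 4391 and 4921 CPM in WT vehicle libraries 240, 253 and 265. The WT treated libraries and KO treated 257 were thus high, and the other 7 libraries were low. Group means were 5875 ± 4260.4 CPM in KO treated (SD, n = 3), 8941 ± 759.6 in WT treated (n = 3), 3930.2 ± 140.0 in KO vehicle (n = 2) and 4527 ± 347 in WT vehicle libraries (n = 3). For 29 of the 37 genes, each of the 4 high libraries was above each of the 7 low ones. KO treated 257 was the highest of all 11 libraries for 22 genes. The high and low sets were drawn from the sum of these same genes, so the count of 29 is no test of the split. The shares of all genes for both counts were not computed.

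**Figure D1:**
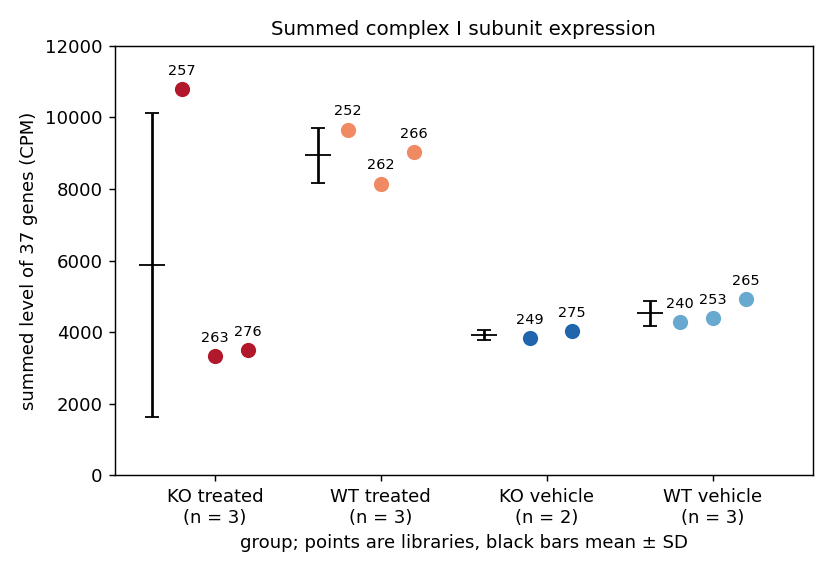
Summed CPM of the 37 complex I subunit genes in each library (points, with library numbers) by group, with the group mean and SD (black bars). KO treated 257 (10793 CPM) lies with the WT treated libraries (8143 to 9656 CPM), and KO treated 263 and 276 (3331 and 3500.2 CPM) lie below all 5 vehicle libraries.

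**Figure D2:**
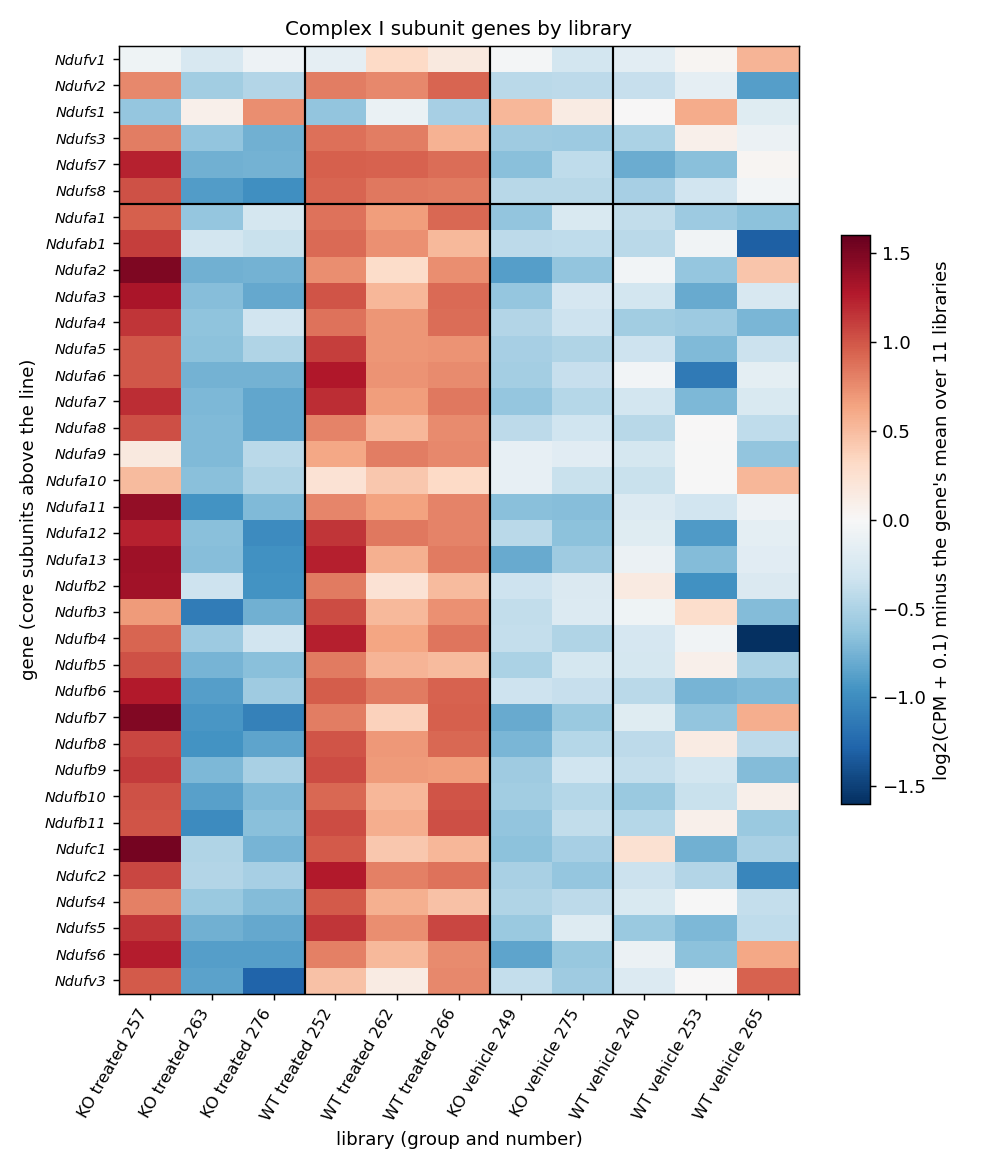
Level of 36 of the 37 genes (rows, core subunits above the line) in each library (columns, by group), as log2 CPM minus the gene's mean over the 11 libraries. Red columns mark WT treated libraries and KO treated 257, while Ndufs1 is lower in those 4 libraries than in most others.

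The comparison of KO with WT hosts under treatment bears on the question in the series title, whether removing CXCL12 from the microenvironment alters the response of leukaemic stem cells to treatment. With all 11 libraries, 36 of the 37 genes had a lower mean in KO treated than in WT treated libraries, with a median log2 fold change of -0.63 against 0.10 for all genes tested. None passed the edgeR quasi-likelihood test at a Benjamini-Hochberg adjusted p under 0.05, as for all genes (0% of 16639), and the smallest adjusted p among the 37 was 0.383. At an unadjusted p under 0.05 there was 1, lower in KO (Ndufa9), against a background of 3.5% of all genes lower and 7.13% higher. KO and WT treated libraries did not overlap for 3 genes, all lower in KO, among them Ndufa9 and Ndufv2, against a background of 9.56% of all genes lower and 9.71% higher without overlap. The 3 KO treated libraries were split: 263 was below all WT treated libraries for 36 genes and 276 for 35, while 257 was above all of them for 23 and below for 3. The matching shares of all genes were not computed, so whether this split is particular to the 37 genes was not tested.

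On the NADH side of the enzyme, Ndufv2, which carries an iron-sulphur cluster, had 469, 187 and 199 CPM in KO treated libraries 257, 263 and 276, against 486, 470.1 and 524 CPM in WT treated libraries 252, 262 and 266. All KO values were below all WT values, with 257 close to them. Its log2 fold change was -0.79 ± 0.37 (SE; edgeR adjusted p = 0.479). Ndufv1, which binds NADH and the flavin, had 182, 159.6 and 182 CPM in KO treated libraries, against 174, 238 and 213 CPM in WT treated ones, with a log2 fold change of -0.26 ± 0.28 (edgeR adjusted p = 0.814). Its groups overlapped and 257 did not stand apart. Ndufs1, the largest subunit and carrier of several clusters, went the other way. It had 46.3, 75.3 and 119.6 CPM in KO treated, against 46.1, 66.1 and 49.4 CPM in WT treated ones, with a log2 fold change of 0.58 ± 0.38 (edgeR adjusted p = 0.629), and was the one gene of the 37 with a higher mean in KO.

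On the quinone side, Ndufs7 and Ndufs8, which hold the last clusters before ubiquinone, showed the split most plainly. Ndufs8 had 498, 133 and 125 CPM in KO treated libraries 257, 263 and 276, against 469, 443 and 438 CPM in WT treated libraries (log2 fold change -0.84 ± 0.47, edgeR adjusted p = 0.564). Ndufs7 had 505, 126 and 128 CPM in KO treated, against 420.5, 415 and 402 CPM in WT treated libraries (-0.71 ± 0.49, adjusted p = 0.663). For both genes 257 was above, and 263 and 276 well below, every WT treated library. Ndufs3, of the same module, had 155, 57.1 and 51.7 CPM in KO treated, against 163, 156 and 130.1 CPM in WT treated libraries (-0.77 ± 0.40, adjusted p = 0.535).

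All 30 accessory subunits had a lower mean in KO treated libraries, with a median log2 fold change of -0.62. Ndufa9, which sits where the arms of the enzyme meet, had the largest difference of the 37. It had 165, 90.8 and 109 CPM in KO treated, against 227, 260.3 and 251 CPM in WT treated libraries. All 3 KO values were below all WT values, and the log2 fold change was -1.01 ± 0.30 (edgeR adjusted p = 0.383). Ndufb3, of the membrane arm, had 207, 59.7 and 76.4 CPM in KO treated, against 266, 187 and 216 CPM in WT treated libraries (-0.96 ± 0.45, adjusted p = 0.478), where 257 lay among the WT libraries. Ndufa4, first counted with complex I and since placed in complex IV, had 719, 209 and 263 CPM in KO treated, against 592, 531 and 606 CPM in WT treated libraries (-0.54 ± 0.41, adjusted p = 0.702). Ndufa13, also known as GRIM-19 for a role in cell death, had 498, 121 and 99.1 CPM in KO treated, against 461, 287 and 344 CPM in WT treated libraries (-0.61 ± 0.53, adjusted p = 0.757). For Ndufa4 and Ndufa13, 257 was the highest and the other KO libraries the lowest of the 6. Ndufab1, the mitochondrial acyl carrier protein, had 133, 50.7 and 48.4 CPM in KO treated, against 117, 103 and 88.8 CPM in WT treated libraries (-0.41 ± 0.43, adjusted p = 0.811). Ndufs4, whose loss causes a Leigh-like disease in mice, had 187, 71.3 and 66.3 CPM in KO treated, against 211, 159 and 149 CPM in WT treated libraries (-0.68 ± 0.39, adjusted p = 0.570). Both showed the same split, with 257 within or above the WT range.

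Without KO treated 257, 30 of the 37 genes fell in KO treated libraries at an edgeR adjusted p under 0.05, against a background of 4.88% of the 16341 genes then tested. The median log2 fold change was then -1.47, against 0.05 for all genes. Ndufs8 fell by 1.81 ± 0.21 on the log2 scale (SE; adjusted p = 0.00757) and Ndufs5, a subunit facing the intermembrane space, by 1.80 ± 0.25 (adjusted p = 0.00886). Ndufs7 fell by 1.70 ± 0.27 (adjusted p = 0.00967), Ndufv2 by 1.35 ± 0.24 (adjusted p = 0.0114) and Ndufa9 by 1.30 ± 0.23 (adjusted p = 0.0118). Among the 7 genes that did not pass were Ndufv1, Ndufs1, Ndufa10, Ndufab1, Ndufb2 and Ndufb4, and of these Ndufs1 was at 0.85 ± 0.32 (adjusted p = 0.147). These values rest on 2 KO treated libraries, and 257 was singled out after its values were known. With limma voom, 34 of the 37 genes fell with all 11 libraries in the fit (background 12.1% of genes), with a median log2 fold change of -1.34. Here voom took a weight for each library from the expression values, with less weight for libraries far from their group. It is therefore not independent of leaving out 257, and the weights were not examined. With each library's share of reads outside genes in the model the median was -1.11 and none passed (smallest adjusted p = 0.0692 by edgeR). At an unadjusted p under 0.05, 31 of the 37 genes were lower in that model, where the share of all genes was not computed.

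**Figure D3:**
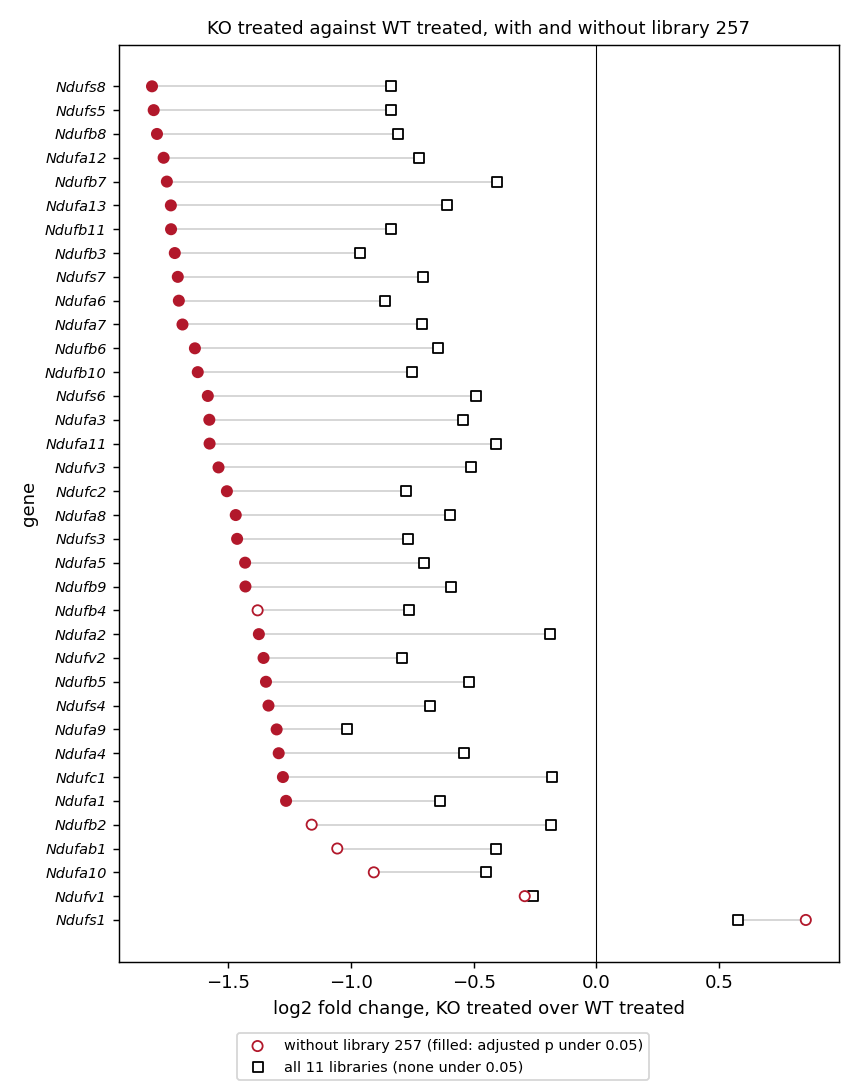
Log2 fold change of KO treated over WT treated libraries for 36 of the 37 genes, with all 11 libraries (squares) and without KO treated 257 (circles, filled where the edgeR adjusted p was under 0.05). The median of the 37 is -0.63 with all libraries and -1.47 without 257, and Ndufs1 is the one gene above 0 in both.

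The summed markers of red-cell precursors did not overlap between KO treated and WT treated libraries. The summed level of 11 erythroid markers was 42238, 21031 and 102477 CPM in KO treated libraries 257, 263 and 276, against 570.0, 247 and 578 CPM in WT treated libraries, with no marker at 0 in the KO treated libraries and 1 at 0 in WT treated 266. Granulocyte markers summed to 31492, 10171 and 22675 CPM in KO treated, against 28863, 40532 and 156835 CPM in WT treated libraries. In hosts given vehicle the erythroid sum was 343 and 16465 CPM in KO libraries 249 and 275, against 1023, 59.1 and 137 CPM in WT libraries 240, 253 and 265, so that 249 lay below WT vehicle 240 and 275 above all WT vehicle libraries. The 12 stem and progenitor markers summed to 1384, 1680.2 and 862 CPM in KO treated, against 1723, 1872 and 1195 CPM in WT treated libraries, and to 1333 and 861 CPM in KO vehicle, against 1646, 545 and 819 CPM in WT vehicle libraries. The erythroid sum was high in all 3 KO treated libraries, whereas complex I was high in 1 of them. The part of other cell types in the complex I values was not tested.

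In hosts given vehicle, the KO and WT libraries lay close together for most of these genes. The median log2 fold change of KO vehicle against WT vehicle libraries was -0.13, against 0.00 for all genes, with 14 genes higher and 23 lower in KO. No gene passed (edgeR smallest adjusted p = 0.850, background 0% of genes), and 0 of the 37 reached an unadjusted p under 0.05 (background 4.8% higher and 1.98% lower). The groups did not overlap for 2 genes that were higher in KO (background 13.2%), Ndufa4 and Ndufb6, and for 6 that were lower (background 7.47%). Ndufv3, an accessory subunit at the NADH tip, had 112 and 98.5 CPM in KO vehicle libraries 249 and 275, against 125, 146 and 279.8 CPM in WT vehicle libraries 240, 253 and 265 (log2 fold change -0.80 ± 0.61, edgeR adjusted p = 0.850). Ndufs6, needed for a late step of assembly, had 92.5 and 109 CPM in KO vehicle, against 156, 105 and 255 CPM in WT vehicle libraries (-0.77 ± 0.62, adjusted p = 0.868). Ndufa2, of the NADH module, had 119 and 142 CPM in KO vehicle, against 213, 143 and 299.7 CPM in WT vehicle libraries (-0.74 ± 0.63, adjusted p = 0.885). In all 3 genes WT vehicle 265 was the highest of the 5 libraries. Without 253 and 265, which left 240 alone in WT vehicle, the median of the 37 genes was 0.01, against 0.13 for all genes. With each library's share of reads outside genes in the model the direction turned, to a median of 0.40 with 33 genes higher and 4 lower in KO.

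In WT hosts, treated libraries had higher levels of nearly all of these genes. Of the 37 genes, 35 had a higher mean in WT treated than in WT vehicle libraries, with a median log2 fold change of 1.10 against 0.09 for all genes tested. With all 11 libraries none passed (background 0% of genes), and the smallest adjusted p was 0.173. At an unadjusted p under 0.05, 23 were higher and 0 lower, against a background of 10.1% and 8.11%. All 3 treated libraries were above all 3 vehicle libraries for 29 genes, against a background of 17.5%. Among the 8 genes whose libraries overlapped were Ndufv1, Ndufv3, Ndufs1, Ndufs6, Ndufa2, Ndufa10 and Ndufb7.

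Ndufc2, a membrane arm subunit, had the largest difference. It had 319, 232 and 242 CPM in WT treated libraries 252, 262 and 266, against 104, 95.5 and 63.9 CPM in WT vehicle libraries 240, 253 and 265, a log2 fold change of 1.59 ± 0.43 (SE; edgeR adjusted p = 0.173). Ndufa1, a small subunit needed for assembly of the membrane arm, had 299.6, 261 and 309.8 CPM in WT treated, against 124, 109.8 and 104 CPM in WT vehicle libraries (1.37 ± 0.38, adjusted p = 0.173). Ndufa4 had 592, 531 and 606 CPM in WT treated, against 222, 218 and 195 CPM in WT vehicle libraries (1.44 ± 0.42, adjusted p = 0.173). None of these 3 genes had overlapping libraries. Of the other accessory subunits described, Ndufab1 had a log2 fold change of 1.24 ± 0.44, Ndufa13 of 1.21 ± 0.54 and Ndufs4 of 0.89 ± 0.39, each without overlap.

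The core subunits did not move as one. Ndufv2 had 486, 470.1 and 524 CPM in WT treated, against 214, 249.6 and 149 CPM in WT vehicle libraries (1.27 ± 0.37, edgeR adjusted p = 0.177). Ndufs7 had 420.5, 415 and 402 CPM in WT treated, against 124, 136 and 220.4 CPM in WT vehicle libraries (1.36 ± 0.50, adjusted p = 0.206), and Ndufs8 and Ndufs3 had log2 fold changes of 1.15 ± 0.47 and 0.91 ± 0.40. These 4 genes had no overlap between treated and vehicle libraries. Ndufv1 had 174, 238 and 213 CPM in WT treated and 169.9, 196 and 279 CPM in WT vehicle libraries (-0.04 ± 0.28, adjusted p = 0.951). Ndufs1 had 46.1, 66.1 and 49.4 CPM in WT treated and 71.3, 108 and 62.1 CPM in WT vehicle libraries (-0.58 ± 0.38, adjusted p = 0.430), overlapping through 262 and 265.

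The number of these genes that passed differed between settings. Without KO treated 257, which is in neither WT group but shares the estimate of the spread, 25 of the 37 genes rose in WT treated libraries (background 3.45% of genes) with the same median of 1.10. With the 6 WT libraries alone in the fit, 0 passed, 28 had an unadjusted p under 0.05 and the smallest adjusted p was 0.0613. The share of all genes under that unadjusted p was not computed for this fit. By DESeq2, 1 of the 37 rose (background 2.04%), and with no filter on low counts 3 did (background 0.382%). With each library's share of reads outside genes in the model, 28 rose and 1 fell (background 5.83% and 6.79%), and the median was 1.87.

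In KO hosts, 257 stood above the vehicle libraries for most genes and the other treated libraries did not. With all libraries, 34 of the 37 genes had a higher mean in KO treated than in KO vehicle libraries, with a median log2 fold change of 0.62 against 0.12 for all genes. None passed (edgeR smallest adjusted p = 1, background 0%) and 0 had an unadjusted p under 0.05 (background 2.7% higher and 0.974% lower). The groups did not overlap for 1 gene, higher in treated (background 12.3%), which was Ndufab1, with 133, 50.7 and 48.4 CPM in KO treated, against 46.4 and 46.8 CPM in KO vehicle libraries. Ndufa2 had 623, 129 and 131 CPM in KO treated libraries 257, 263 and 276, against 119 and 142 CPM in KO vehicle libraries (log2 fold change 1.17 ± 0.64). Ndufc1, a small membrane arm subunit, had 307, 76.4 and 63.2 CPM in KO treated, against 67.2 and 73.6 CPM in KO vehicle libraries (1.08 ± 0.62). Ndufa11, of the membrane arm, had 183, 35.5 and 42.2 CPM in KO treated, against 43.2 and 43.1 CPM in KO vehicle libraries (1.01 ± 0.59). In all 3 genes 257 alone was far above the vehicle libraries. Without 257 the median of the 37 genes was -0.24, with 34 genes lower in treated libraries and none passing. With each library's trend with transcript length removed, it was 0.052, and modelling the share of reads outside genes gave 0.28.

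Whether the niche changed the response to treatment was tested by the interaction, the KO against WT difference in treated hosts minus that in vehicle hosts. The median log2 value was -0.54, against 0.11 for all genes, with 29 of 37 genes negative. None passed (background 0%), and 1 negative value, that of Ndufa9, had an unadjusted p under 0.05 (background 3.27% negative and 3.04% positive). Ndufa9 had an interaction of -1.15 ± 0.44 (edgeR adjusted p = 0.767), with 135 and 131 CPM in KO vehicle and 122, 147 and 95.3 CPM in WT vehicle libraries beside the treated values above. By p, Ndufs5 and Ndufv2 followed at -1.02 ± 0.70 and -0.79 ± 0.55. Ndufs5 had 147, 38.9 and 37.5 CPM in KO treated libraries, 147, 112 and 140.1 CPM in WT treated, 43.9 and 57.8 CPM in KO vehicle and 44.0, 40.4 and 50.2 CPM in WT vehicle libraries. Without 257 the median interaction was -1.37 and still none passed, with a smallest adjusted p of 0.0831. With each library's trend with transcript length removed the median was -0.020, against 0.33 for all genes, with 18 genes positive and 19 negative.

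Across all tested genes, transcript length ran with these differences. Across all tested genes with a length, the log2 fold change had a Spearman correlation with transcript length of 0.46 in KO treated against WT treated libraries and -0.34 in WT treated against WT vehicle libraries. Among the 37 genes alone the correlation was -0.05 and -0.39 in the same 2 comparisons. These are correlations across genes, which share libraries and are not independent. In a single library, the correlation of a gene's relative level with length was -0.24 in KO treated 257, against 0.34 and 0.36 in 263 and 276. It was -0.32, -0.40 and -0.33 in WT treated, 0.25 and 0.24 in KO vehicle, and 0.10, 0.03 and 0.08 in WT vehicle libraries. The 4 libraries with high complex I levels were thus the 4 in which short transcripts were relatively high. The 7 genes with transcripts over 1500 bases (a limit chosen after the values were seen) had a median log2 fold change of 0.23 in WT treated against WT vehicle libraries, from -0.58 for Ndufs1 to 1.27 for Ndufv2. The 30 shorter ones had a median of 1.201, from 0.62 to 1.59. All tested genes at the lengths of the 37 had a median of 0.88, and the 37 genes lay above the genes of their own length by a median of 0.27, with 29 above and 8 below. Ndufv2 lay farthest above (0.999) and Ndufv1 farthest below (-0.36). In KO treated against WT treated libraries, all genes at those lengths had a median of -0.54, and the 37 genes lay below them by a median log2 difference of -0.15, with 10 above and 27 below. There the 7 longer and the 30 shorter genes had medians of -0.50 and -0.67.

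**Figure D4:**
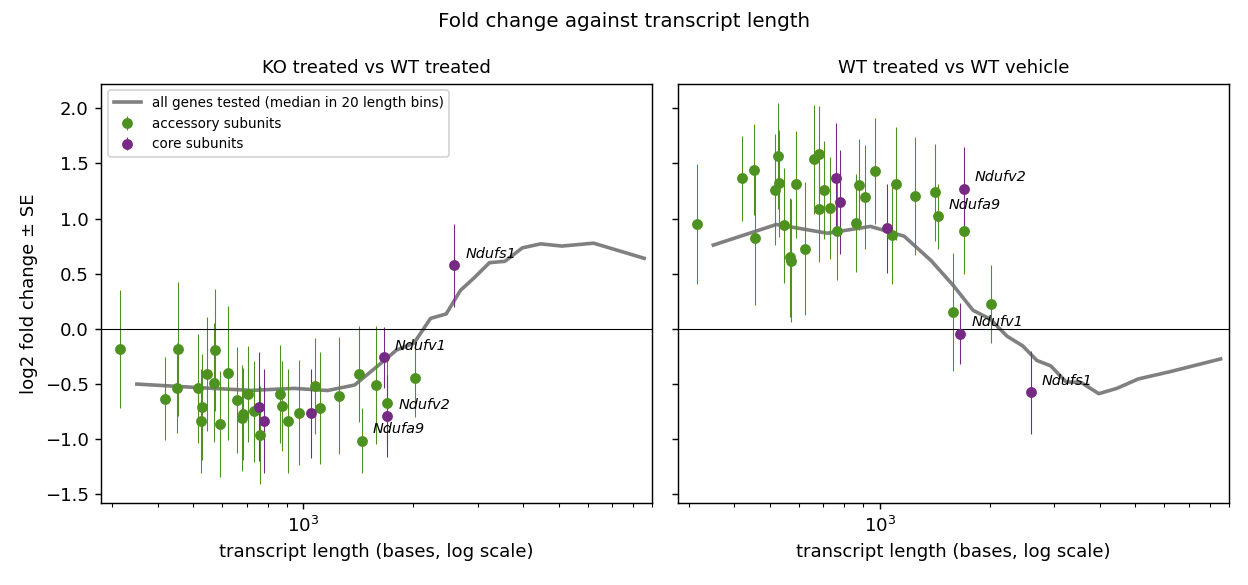
Log2 fold change (points, with SE) of 36 of the 37 core and accessory subunit genes against transcript length (bases, log scale), with the median of all tested genes in 20 length bins (grey line). In both comparisons most of the 37 genes follow the line, with Ndufv2 above it in WT treated against WT vehicle libraries and Ndufa9 below it in KO treated against WT treated libraries.

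With each library's trend with length removed, the median of the 37 genes was -0.30 in KO treated against WT treated and 0.11 in WT treated against WT vehicle libraries, where that of all genes was -0.29, and no gene of the 37 passed in any of the 5 comparisons. Ndufv2 was then at 0.64 ± 0.37 and Ndufv1 at -0.71 ± 0.30 in WT treated against WT vehicle libraries (edgeR adjusted p = 0.394 and 0.270). Without 257 as well, the median in KO treated against WT treated libraries was -0.59 with 35 of 37 genes negative, and the smallest adjusted p was 0.204.

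The genes also differed in how they kept step with one another. Relative to the mean log2 level of the 37 genes in each library, Ndufs1 varied most, over a 7.79-fold range. Its relative log2 level was -2.39, -0.05 and 0.57 in KO treated, -2.28, -1.505 and -2.04 in WT treated, 0.20 and -0.27 in KO vehicle, and -0.50, 0.12 and -0.71 in WT vehicle libraries. It was thus lowest against its partners in the 4 libraries in which they were highest. Ndufv1 and Ndufv3 were also among the 4 that varied most, with SDs over the 11 libraries of 0.63 and 0.50, against 1.07 for Ndufs1. Ndufa8, which faces the intermembrane space, kept closest to the others, with an SD of 0.146 and relative levels from 0.07 to 0.62. The 4 genes that varied most all have transcripts over 1500 bases, and Ndufs4, which is as long, was among the steadiest (0.151).

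**Figure D5:**
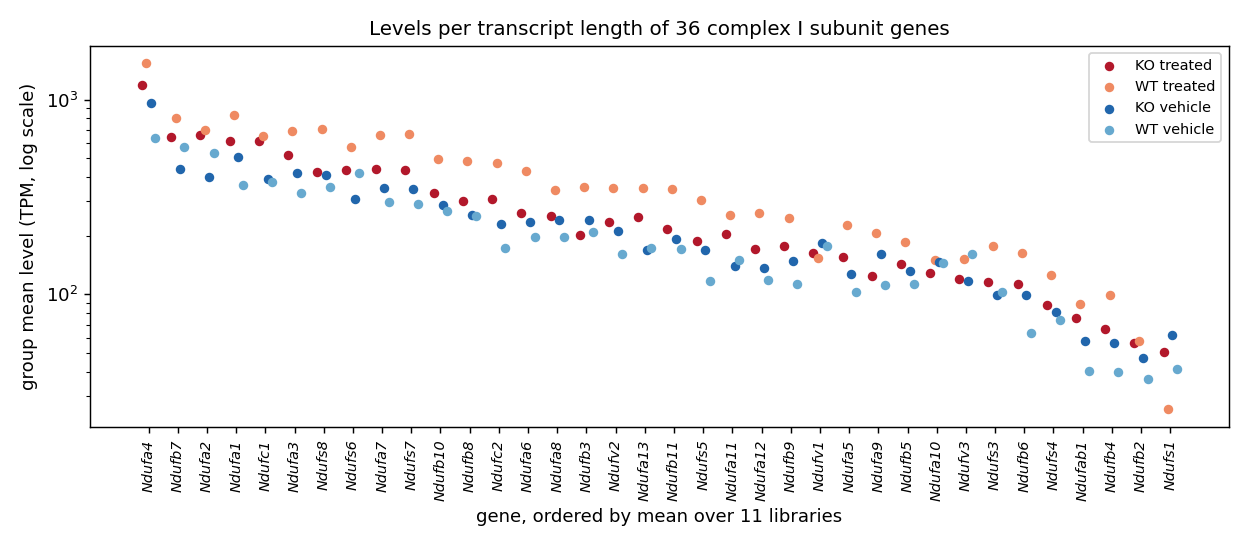
Mean level per transcript length (TPM, log scale) of 36 of the 37 genes in the 4 groups, ordered by the mean over 11 libraries. By that mean Ndufa4 is highest and Ndufs1 lowest, and WT treated libraries (orange) have the highest group mean for most genes but the lowest for Ndufs1.

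Levels per transcript length (TPM, counts divided by length and scaled to the same total in each library) spanned a wide range across these genes. Ndufa4 had the highest level, at 1182 ± 421 TPM in KO treated, 1535 ± 255 in WT treated, 959.6 ± 2.56 in KO vehicle and 634 ± 35.3 in WT vehicle libraries (SD). Ndufb7, Ndufa2 and Ndufa1 followed with means over 11 libraries of 629.8, 588 and 585 TPM, and their order was within the spread between libraries. Ndufs1 had the lowest mean over the 11 libraries, at 50.6 ± 27.8 TPM in KO treated, 25.7 ± 9.78 in WT treated, 61.9 ± 16.02 in KO vehicle and 41.4 ± 8.55 in WT vehicle libraries. In both vehicle groups Ndufb2, Ndufb4 and Ndufab1 had lower means than Ndufs1. Ndufb2, Ndufb4 and Ndufab1 were next lowest, at 49.7, 66.3 and 66.6 TPM over all libraries. The length given to a gene sets its TPM, so isoforms other than the one chosen would move these levels.

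Genes that build or accompany complex I were set beside its subunits. Of 19 named assembly factors 18 were tested, and 16 had a lower mean in KO treated than in WT treated libraries, at a median of -0.62 (log2 fold change), and 0 passed. In WT treated against WT vehicle libraries 13 of them were higher, with a median of 1.05. Dmac1, a factor for the distal membrane arm, had 100.7, 31.5 and 37.5 CPM in KO treated, against 119.8, 98.2 and 135 CPM in WT treated libraries (log2 fold change -1.06 ± 0.44, edgeR adjusted p = 0.447). The 39 nuclear subunits of complexes II to V had a median of -0.52 in KO treated against WT treated libraries (38 lower) and 1.07 in WT treated against WT vehicle libraries (36 higher), with 0 passing. These medians lie close to those of the complex I genes, and the difference between the lists was not tested. Complexes II to V summed to 20382, 8104 and 9982 CPM in KO treated 257, 263 and 276, and 18648, 17523 and 18158 CPM in WT treated libraries. Assembly factors summed to 746, 471 and 477 CPM in KO treated, and 784, 831 and 832 CPM in WT treated libraries. Medians of the lists without 257 were not computed. Of 12 regulators of mitochondrial biogenesis 10 had a higher mean in KO treated libraries, with a median of 0.97 against 0.10 for all genes, and 0 passed. In WT treated against WT vehicle libraries 8 of the 12 had a lower mean, with a median of -0.49. The regulators summed to 250, 373 and 417 CPM in KO treated 257, 263 and 276, and 230, 267 and 236 CPM in WT treated libraries. Their transcript lengths were not taken into account. Nrf1 itself had 35.7, 65.5 and 85.9 CPM in KO treated, against 27.1, 45.6 and 27.5 CPM in WT treated libraries (0.90 ± 0.38, adjusted p = 0.449).

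The mitochondrially encoded subunits of the same enzyme did not follow the nuclear ones. Their 7 genes summed to 45119.9, 16849.7 and 25517 CPM in KO treated libraries 257, 263 and 276 and to 8376, 6707 and 56523 CPM in WT treated libraries 252, 262 and 266. The sums were 38117 and 22501 CPM in KO vehicle and 80386, 73320 and 50455 CPM in WT vehicle libraries. Against WT vehicle libraries all 7 had a lower mean in WT treated libraries, with a median log2 fold change of -1.56, 3 with an unadjusted p under 0.05 (background 8.11% of genes lower) and 0 passing. The nuclear sum was 23.9%, 19.8% and 13.7% of the mitochondrial sum in KO treated, 115%, 121% and 15.96% in WT treated, 10.1% and 17.9% in KO vehicle, and 5.31%, 5.99% and 9.75% in WT vehicle libraries. WT treated 252 and 262 were thus far above the other 9 libraries, and 266 was near KO vehicle 275. What sets this share was not tested.

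Processed copies of these genes could have taken some reads. Of Ndufa11, Ndufb4, Ndufs6 and Ndufab1, annotated copies held between 0.0358% and 1.40% of the parent gene's counts, while reads that matched more than 1 place were set aside before counting and made up 11.6% to 30.0% of reads in a library. Exons of 16 of the 37 genes overlap exons of another gene in the annotation, mostly on the opposite strand, and for 6 more than 10% of exon bases do (Ndufb6, Ndufa13, Ndufb9, Ndufb11, Ndufb5 and Ndufa2). Counts of these genes are the less certain for it, since the library protocols do not keep the strand. The strand setting of the counting is not given in the sources used here.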

How the data were processed

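Libraries were made, per the labels' protocols, from RNA of an RNeasy Plus Micro kit with SMARTer Ultra Low Input amplification and Nextera XT, which do not keep the strand. Values in the table deposited by the authors are raw counts of reads per gene, not normalized. STAR 2.7.9a, Trim Galore 0.6.7, bcl2fastq, DESeq2 and HTSeq (given the version 0.6.7), with build GRCm39, are named per the submitters' processing notes, without roles. The annotation release, strand setting and filters are not given in the sources used here. The 5 HTSeq summary lines were left out of library sizes and tests: reads outside genes were 5.98% to 30.4%, ambiguous reads 2.34% to 6.31% and reads at more than 1 place 11.6% to 30.0% of a library.

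Ensembl IDs without their version were looked up in GENCODE M21 (GRCm38, used for names, exon overlaps and lengths), which named 52147 of 53700 genes. A gene's length was that of its shortest principal (APPRIS) transcript, or else its shortest protein-coding or any transcript, and 99.7% of tested genes had one. TPM was computed over the tested genes. In R 4.3.3, edgeR 4.0.16 was used with filterByExpr, TMM scaling and a robust quasi-likelihood fit of the 4 groups over all 11 libraries, with Benjamini-Hochberg adjustment over 16639 genes in each of 5 comparisons and a threshold of 0.05. The biological coefficient of variation was 0.783. SE was taken from the log2 fold change and the F statistic as |log2 fold change| / √F. The main edgeR fit was run on simulated counts for the comparisons between groups. The interaction and the alternative settings were not run on simulated counts. Depth ran from 8.13 to 31.1 M gene counts, without molecular identifiers.

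A single subunit gene enters the sums, medians and counts but its own values are not reported here. Described genes were the other core subunits, the 3 with the smallest p in each comparison, the highest and lowest by TPM, Ndufa4, Ndufab1, Ndufa13 and Ndufs4, and the gene with the smallest p of each accompanying list; other genes are named as extremes or as members of a small count. That gene of the mitochondrially encoded list, mt-Nd4l, was near 0 CPM, and that of complexes II to V, Sdhb, had a log2 fold change of -1.06 ± 0.32 in KO treated against WT treated libraries (edgeR adjusted p = 0.405). Members and lists were chosen with earlier results of these data known. Alternatives were DESeq2 size factors, no filter, the DESeq2 1.42.0 Wald test, limma 3.58.1 voom with quality weights, removal of each library's length trend (lowess, span 0.3), each library's share of reads outside genes as covariate, leaving out libraries, and only the libraries compared.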

Additional observations from a re-analysis of the deposited data

How the results depend on the processing

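No paired analysis was possible because the library numbers differ in all groups. In the values below the cause of a change was not tested. The SD of the mean log2 level of the complex I genes was wide in KO treated libraries, at 0.93. Pooled over the groups compared, the SD was 0.67 for KO against WT treated and 0.66 for KO treated against KO vehicle. Large shifts therefore fall within this pooled SD, which set the limit for medians below. Over all alternatives, 255 counts and medians stayed within limits (1.5 times for a count, 1 SD between replicates for a median) and 42 moved beyond them, and of single-gene values 649 kept sign and side of the threshold, 42 passed the test in addition and 25 changed sign. KO treated against WT treated: all genes passing were 0 with all libraries, 43 without a filter, 224 by DESeq2 and 4375 by voom, and 0 to 1513 leaving out 1 library; complex I genes passing were 34 by voom and 0 to 30 leaving out 1 library, and their median was -1.34 by voom, -1.11 with the covariate, -0.30 with the length trend removed and -1.47 (without 257) to -0.33 leaving out 1 library. KO vehicle against WT vehicle: all genes passing were 11 without a filter and 319 by DESeq2. They were 0 to 85 leaving out 1 library (85 without 240). The complex I median was -0.18 with DESeq2 size factors and by DESeq2, 0.40 with the covariate and 0.010 without 253 and 265. It was -0.17 to -0.055 leaving out 1 library. With the length trend removed it was -0.29, against -0.33 for all genes. When 257 was also left out it was -0.28, again against -0.33 for all genes. WT treated against WT vehicle: all genes passing were 215 without a filter, 1164 by DESeq2, 2100 with the covariate and 0 to 1012 leaving out 1 library (1012 without 257, 190 without 240); complex I genes passing were 3, 1, 29 and 0 to 25 in the same settings (25 without 257); the median was 0.11 with the length trend removed, 0.10 also without 257, 1.87 with the covariate and 1.24 without 253 and 265. KO treated against KO vehicle: 31 genes passed by DESeq2; the median was -0.11 by voom, 0.052 with the length trend removed, 0.28 with the covariate, -0.24 (without 257) to 0.95 leaving out 1 library, and -0.27 with the length trend removed without 257. Interaction: 109 genes passed by DESeq2 and 0 to 1 leaving out 1 library. The median was -1.26 by voom, -1.501 with the covariate and -1.37 (without 257) to -0.21 leaving out 1 library. With the length trend removed it was -0.020, against 0.33 for all genes. The fit of only the libraries compared gives no interaction.

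Signs changed as follows. In KO treated against WT treated libraries Ndufv1 was at 0.031 with the length trend removed and 0.057 also without 257. In KO vehicle against WT vehicle libraries Ndufa2, Ndufs6 and Ndufv3 were at 0.27, 0.21 and 0.066 with the covariate. In WT treated against WT vehicle libraries Ndufv1 was at 0.064 by voom, 0.041 with the covariate, 0.41 without 253 and 265, 0.071 without WT treated 252 and 0.20 without WT vehicle 265, and its range leaving out 1 library was -0.19 to 0.20. There Ndufs3 was at -0.14 with the length trend removed and -0.15 also without 257. In KO treated against KO vehicle libraries Ndufa11, Ndufa2, Ndufc1 and Ndufs1 were at -0.16, -0.0094, -0.014 and 0.10 without 257, and at -0.20, -0.064, -0.12 and 0.040 when the length trend was also removed. Leaving out 1 library, the ranges were -0.16 to 1.43 for Ndufa11, -0.0094 to 1.58 for Ndufa2, -0.014 to 1.47 for Ndufc1 and -0.62 to 0.10 for Ndufs1. Ndufa11 was there at -0.11 by voom and Ndufs1 at 0.014 without KO vehicle 249. In the interaction Ndufa2 was at -0.32 by voom, -1.23 with the covariate and -0.63 without 257, with a range of -0.63 to 0.94 leaving out 1 library. Removing the length trend and 257 together was chosen after the data were seen. With 2 or 3 libraries a group, leaving out a KO vehicle library assumes that the lone one varies like the rest. No complex I gene count limits the results, since the smallest was 103.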
